A study of Mus musculus with 9 samples.

Results

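The 9 genes described here mark antibody-secreting plasma cells or keep such cells alive, and their transcripts were counted in sorted hippocampal neurons of the mouse. They were taken as a named list, and each was matched by gene symbol to 1 of the 51912 Ensembl genes in the deposited tables. They were selected on their counts in these same libraries, with earlier results known, so the levels below are a description and carry no test. Hippocampal pyramidal neurons came from male mice of the C57BL/6 strain with a Camk2a-driven Cre recombinase, whose promoter is active in forebrain excitatory neurons. All animals received rAAV5, an adeno-associated virus vector, with a Cre-dependent gene for the red fluorescent protein mCherry, and fluorescent cells were sorted 3 weeks later. The study used 3 doses, 2.88e+10, 2.88e+09 and 2.88e+08 vector genomes, with the lowest as its control, and describes 9 samples in 3 groups of 3. The age of the mice is not stated in the labels.

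The libraries are titled S1001 to S1009, and their labels name no dose for any of them. The column headings of the deposited tables carry H1 to H3 for S1001 to S1003, M1 to M3 for S1004 to S1006 and L1 to L3 for S1007 to S1009, and the labels do not say what these letters stand for. The letters are used here as names of columns only. No library was assigned to a dose, and each value is given for its library without a mean, a standard deviation or a p-value.

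Plasma cells arise from activated B cells when the transcription factors Irf4 and Prdm1 (the protein Blimp-1) shut down the B cell programme and, with Xbp1, enlarge the endoplasmic reticulum for antibody secretion. Mzb1, Derl3 and Fkbp11 act in that compartment. Long-lived plasma cells depend on survival signals from APRIL and BAFF, ligands of the tumour necrosis factor family that bind the receptors Tnfrsf17 (BCMA) and Tnfrsf13b (TACI). Few such cells are found in healthy brain tissue.

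Total gene counts ranged from 12136830 to 19151596 per library, and a gene without counts could still lie at 0.158 to 0.246 CPM, depending on the library (CPM are counts scaled to a common depth with TMM factors, which correct for library composition). S1001, S1002 and S1003 were far more alike than any other libraries. Over genes with at least 10 counts in a pair, chi-square per degree of freedom was 2.67 to 5.14 among these 3, against 24.3 to 33.6 within S1004 to S1006 and 27.2 to 38.9 within S1007 to S1009. All of these exceed the value near 1 that sampling noise alone gives, so the 9 libraries were kept apart. The study calls its replicates biological without tying a library to an animal, so the close agreement of S1001 to S1003 below may be technical. Pyramidal neuron genes were present in every library, with a summed level of 2968 to 7600 CPM for 6 genes, and transcripts of other cell types were present as well.

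The 9 genes did not share a single pattern over the libraries. Pou2af1 and Mzb1 were found almost wholly in S1001 to S1003, where 100.0% and 99.9% of their CPM summed over the 9 libraries lay. The share in S1001 to S1003 was 88.5% for Sdc1, 83.7% for Prdm1 and 72.4% for Irf4. It was 64.2% for Derl3, 63.9% for Tnfrsf13b, 45.4% for Fkbp11 and 39.1% for Tnfrsf17. S1004 to S1006 held 60.9% of the Tnfrsf17 level and 36.1% of the Tnfrsf13b level, but 0% of the levels of Mzb1 and Pou2af1. S1007 to S1009 held 26.2% of the Fkbp11 level and 15.9% of the Derl3 level.

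**Figure D1:**
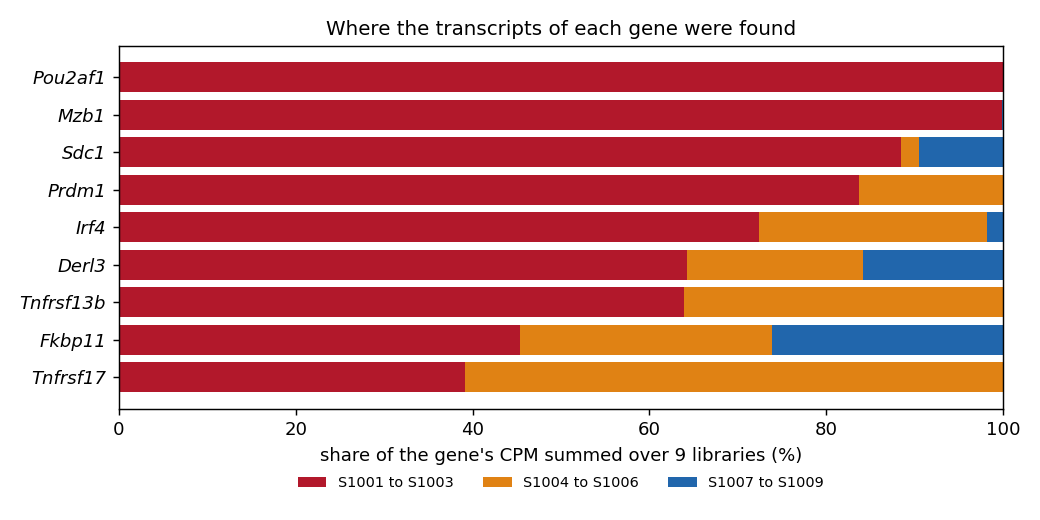
Share of each gene's level, in CPM summed over the 9 libraries, that lay in S1001 to S1003, S1004 to S1006 and S1007 to S1009, with 1 bar per gene. Pou2af1 and Mzb1 lie at 100.0% and 99.9% in S1001 to S1003, while Tnfrsf17 has 60.9% in S1004 to S1006.

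A mean of at least 1 CPM was reached by 8 of the 9 genes. Pou2af1, at 0.998 CPM, lay just below this minimum, and Fkbp11, at 1.40 CPM, was the lowest above it. Of these 8 genes, 7 differed by 2-fold or more from the second lowest library to the second highest on the log2(CPM + 1) scale, as did 26.4% of the 14787 genes that reached the minimum. The median difference was 2.32 for the 8 genes and 0.66 for the 14787 genes. All of S1001 to S1003 lay above the other 6 libraries in 7 of the 8 genes, Tnfrsf17 being the exception, against 12.7% of the 14787 genes. All of S1007 to S1009 lay below the other 6 in 4 of the 8, namely Tnfrsf17, Tnfrsf13b, Irf4 and Prdm1, against 13.6% of the 14787. Without S1001 to S1003, only 5 of the genes reached the minimum. Mzb1, Sdc1 and Irf4 thus passed it through the libraries in which they were high, which favours S1001 to S1003 being highest in them. Since the genes were also listed with such values known, the counts above describe the list and support nothing further. With a pseudocount of 5 CPM, 4 of the 8 genes differed by 2-fold or more, and the share over all genes was not computed at that setting.

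Prdm1 and Irf4, transcription factors of the plasma cell programme, were graded over the libraries. Prdm1, the repressor that ends the B cell programme (ENSMUSG00000038151, chromosome 10, 44437177 to 44528501, minus strand, build mm10), had 194, 201 and 158 counts in S1001, S1002 and S1003, or 15.9, 15.4 and 12.1 CPM. Its counts were 39, 74 and 18 in S1004, S1005 and S1006, or 2.05, 5.10 and 1.31 CPM, and 0 in each of S1007, S1008 and S1009. The 3 sets of libraries did not overlap for Prdm1, and the gap between the lowest of S1001 to S1003 and the highest of the other 6 was 1.10 on the log2(CPM + 1) scale. Without S1005, the gap was 2.10.

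Irf4, which acts upstream of Prdm1 and is dose-sensitive in B cells (ENSMUSG00000021356, chromosome 13, 30749226 to 30766976, plus strand), followed the same order. It had 52, 61 and 44 counts in S1001 to S1003, or 4.26, 4.69 and 3.36 CPM. The levels were 1.16, 2.21 and 1.02 CPM in S1004 to S1006. S1007 and S1009 had 0 counts, and S1008 had 5 counts, or 0.305 CPM with a 95% Poisson interval of 0.0989 to 0.711 CPM. Such intervals cover counting error only. Within S1004 to S1006, S1005 was the highest library for Irf4 as for Prdm1. Both genes are also expressed by T cells and by some macrophages and dendritic cells. In these bulk libraries, fewer cells of a type and less RNA per cell cannot be told apart.

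Pou2af1, the B cell coactivator that binds the octamer factors Oct-1 and Oct-2 (ENSMUSG00000032053, chromosome 9, 51213708 to 51240080, plus strand), had another distribution. It had 33, 38 and 44 counts in S1001, S1002 and S1003, or 2.70, 2.92 and 3.36 CPM, and 0 counts in all other 6 libraries. Pou2af1 was thus detected in S1001 to S1003 only. Its upper limits elsewhere were 0.158 CPM in S1004, 0.207 CPM in S1005, 0.218 CPM in S1006 and 0.183 to 0.202 CPM in S1007 to S1009. The sense intronic gene Gm47828, which lies within Pou2af1, had 1 count in S1002 and 0 in the others.

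**Figure D2:**
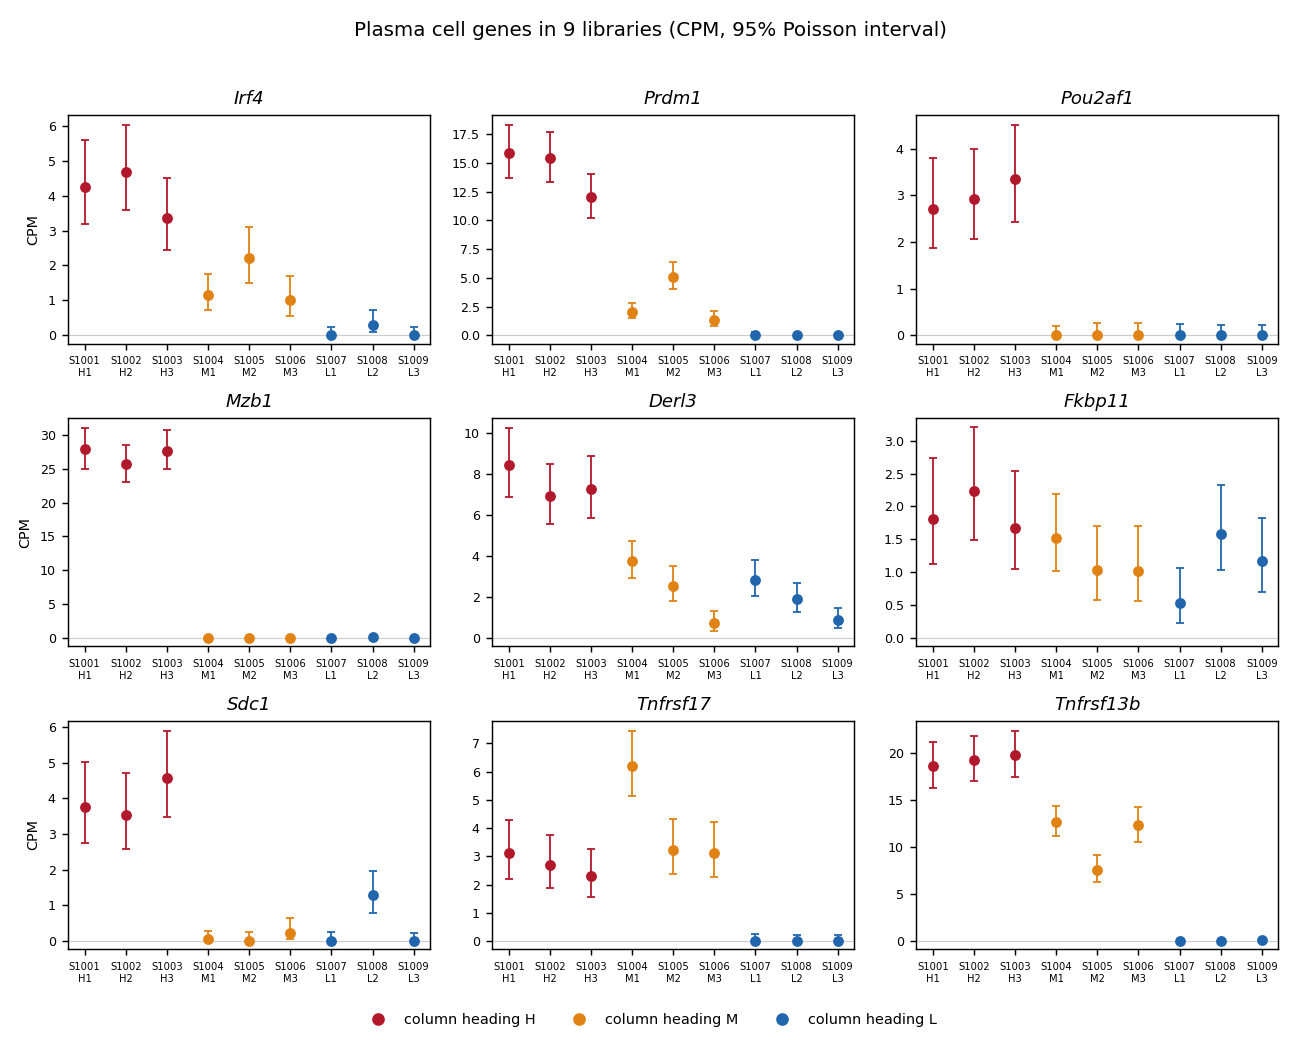
Level of each of the 9 genes in CPM (vertical axes, a scale for each panel) in each library, named by title and column heading on the horizontal axis. Points are single libraries and bars are 95% Poisson intervals, which cover counting error only. Mzb1 and Pou2af1 are near or at 0 outside S1001 to S1003, whereas Tnfrsf17 is highest in S1004 at 6.21 CPM.

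Of the genes of the secretory compartment, Mzb1 differed most between libraries. Mzb1, an endoplasmic reticulum protein that helps assemble and secrete antibody (ENSMUSG00000024353, chromosome 18, 35647267 to 35649367, minus strand), had 340, 334 and 363 counts in S1001, S1002 and S1003, or 27.9, 25.7 and 27.7 CPM. S1008 had 2 counts, or 0.122 CPM, and the other 5 libraries had 0. The gap between the lowest of S1001 to S1003 and the highest of the other libraries was 4.57 on the log2(CPM + 1) scale. A separate gene model, ENSMUSG00000117874, spans Mzb1 and its neighbour Spata24 on the same strand and was not analysed here. Spata24, which does not itself overlap Mzb1, had 20 to 60 counts in the 9 libraries, with 38, 25 and 41 in S1001 to S1003, and was not higher in those libraries.

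Derl3, a component of the machinery that removes misfolded proteins from the endoplasmic reticulum (ENSMUSG00000009092, chromosome 10, 75893413 to 75895941, plus strand), was detected in every library. It reached 8.44, 6.91 and 7.24 CPM in S1001 to S1003. The levels were 3.74, 2.55 and 0.727 CPM in S1004 to S1006 and 2.83, 1.89 and 0.863 CPM in S1007 to S1009. The last 6 libraries overlapped, with S1004 the highest and S1006 the lowest of them.

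Fkbp11, a peptidyl-prolyl isomerase of the secretory pathway (ENSMUSG00000003355, chromosome 15, 98724366 to 98728198, minus strand), varied least of the 9 genes. It measured 1.80, 2.23 and 1.68 CPM in S1001 to S1003, 1.53, 1.03 and 1.02 CPM in S1004 to S1006, and 0.538, 1.58 and 1.17 CPM in S1007 to S1009. S1001 to S1003 were the 3 highest libraries, but the gap to the next, S1008, was 0.05 on the log2(CPM + 1) scale. The Poisson interval of S1003, 1.05 to 2.54 CPM, holds the S1008 level. These counts of 8 to 29 reads therefore do not separate S1003 from S1008, whereas the interval of S1007, 0.232 to 1.06 CPM, lay below those of S1001 and S1002.

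Sdc1, the cell surface proteoglycan CD138 by which plasma cells are commonly sorted (ENSMUSG00000020592, chromosome 12, 8771323 to 8793715, plus strand), had 46, 46 and 60 counts in S1001, S1002 and S1003, or 3.77, 3.53 and 4.58 CPM. It had 1, 0 and 3 counts in S1004, S1005 and S1006. S1007 and S1009 had 0 counts, whereas S1008 had 21, or 1.28 CPM with an interval of 0.792 to 1.96 CPM. S1008 thus stood apart for Sdc1 from the 2 libraries that share its letter. It was also the one library outside S1001 to S1003 with Mzb1 counts, but these were only 2. S1008 had 0 counts of Pou2af1, Prdm1 and Tnfrsf17. Without S1008, the gap between the lowest of S1001 to S1003 and the highest of the rest was 1.90 on the log2 scale, against 0.99 with it.

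Sdc1 is also made by epithelial cells, and epithelial genes were sparse. None of 5 epithelial genes reached a mean of 1 CPM, and their summed level was 0.991 to 1.15 CPM in S1001 to S1003 and 0 to 0.526 CPM in the other 6 libraries. Epcam, an epithelial adhesion molecule, had 11, 9 and 10 counts in S1001 to S1003, 0, 1 and 0 in S1004 to S1006 and 0, 2 and 0 in S1007 to S1009. Krt19, a keratin, reached 0.474 CPM in S1004, and Cdh1, the cadherin of epithelial junctions, 0.384 CPM in S1002. Their part in the Sdc1 level was not tested.

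The other syndecans had their own distributions. Sdc2 ranged from 23.3 to 39.2 CPM and Sdc3, a neural syndecan, from 26.6 to 69.0 CPM over the 9 libraries. Sdc4 measured 158, 151 and 161 CPM in S1001 to S1003, 170, 222 and 199 CPM in S1004 to S1006, and 1.08, 4.87 and 1.66 CPM in S1007 to S1009. Sdc4 thus had counts like those of the survival receptors, present in the first 6 libraries and low in the last 3, and unlike those of Sdc1.

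The survival receptors were detected in all of S1001 to S1006, as were Prdm1 and Irf4, and were at or near 0 in S1007 to S1009. Tnfrsf17, the receptor BCMA that holds long-lived plasma cells alive in response to APRIL (ENSMUSG00000022496, chromosome 16, 11313812 to 11320074, plus strand), had 38, 35 and 30 counts in S1001, S1002 and S1003, or 3.11, 2.69 and 2.29 CPM. It had 118, 47 and 43 counts in S1004, S1005 and S1006, or 6.21, 3.24 and 3.13 CPM, and 0 counts in S1007, S1008 and S1009. All of S1004 to S1006 therefore lay above all of S1001 to S1003, though S1001, at 3.11 CPM, and S1006, at 3.13 CPM, were nearly equal. The highest library, S1004, had an interval of 5.14 to 7.44 CPM that lay above those of the other 8. The gap of the lowest of S1001 to S1003 to the highest of the other libraries was -1.13 on the log2(CPM + 1) scale, and -0.37 without S1004.

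Tnfrsf13b, the receptor TACI that binds both APRIL and BAFF (ENSMUSG00000010142, chromosome 11, 61126755 to 61149372, plus strand), measured 18.6, 19.3 and 19.7 CPM in S1001 to S1003 and 12.7, 7.59 and 12.3 CPM in S1004 to S1006. S1007 and S1008 had 0 counts and S1009 had 1. The 3 sets did not overlap for Tnfrsf13b. The processed pseudogene Gm12269, which overlaps it on the other strand, had at most 2 counts in a library.

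The promoters below are shown because Pou2af1 was detected in 3 libraries and the receptors Tnfrsf17 and Tnfrsf13b in the same 3 and in S1004 to S1006. The sequences are from RefSeq (build GRCm38.p6), run 5′ to 3′ along the gene's strand, and span 250 bases before to 50 after the annotated start. They lie at chr9:51213440-51213739 for Pou2af1, chr16:11313559-11313858 for Tnfrsf17 and chr11:61126505-61126804 for Tnfrsf13b, all on the plus strand. Capitals mark matches to the letters searched, on either strand.
Pou2af1: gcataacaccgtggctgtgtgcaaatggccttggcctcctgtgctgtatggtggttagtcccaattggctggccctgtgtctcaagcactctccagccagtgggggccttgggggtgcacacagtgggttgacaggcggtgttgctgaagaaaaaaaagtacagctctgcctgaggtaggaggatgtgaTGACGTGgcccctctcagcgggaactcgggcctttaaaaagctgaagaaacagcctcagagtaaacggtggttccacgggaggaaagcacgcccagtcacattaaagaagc
Tnfrsf17: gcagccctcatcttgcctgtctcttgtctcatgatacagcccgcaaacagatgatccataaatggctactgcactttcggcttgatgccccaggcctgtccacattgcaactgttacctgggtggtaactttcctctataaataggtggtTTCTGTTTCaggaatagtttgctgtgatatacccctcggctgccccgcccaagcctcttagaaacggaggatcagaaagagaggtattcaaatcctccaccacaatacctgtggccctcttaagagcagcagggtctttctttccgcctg
Tnfrsf13b: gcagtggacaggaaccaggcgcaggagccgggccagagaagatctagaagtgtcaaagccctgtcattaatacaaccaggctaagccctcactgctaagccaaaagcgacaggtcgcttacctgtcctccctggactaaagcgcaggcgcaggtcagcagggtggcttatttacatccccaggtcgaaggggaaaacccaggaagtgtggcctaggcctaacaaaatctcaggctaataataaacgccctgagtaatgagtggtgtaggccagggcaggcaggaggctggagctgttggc

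The search used the PU.1 box GAGGAAG, the octamer ATGCAAAT, the paired interferon-type letters GAAANNGAA and the unfolded protein response core TGACGTG. The Pou2af1 window held TGACGTG, as did 2.01% of 32851 promoters of this length. The Tnfrsf17 window held GAAANNGAA on the minus strand, as did 8.56% of all promoters, and the Tnfrsf13b window held none of the 4. Promoters were in the table for 8 of the 9 genes. Of the rest, Derl3, Prdm1 and Sdc1 held the PU.1 box, which 13.6% of promoters held, one of a pair of Fkbp11 windows held TGACGTG, and Irf4 had no match. The octamer was in none of them and in 1.74% of all promoters. A match is a description of letters and shows no binding.

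Levels of different genes were compared per length, in the deposited FPKM. Mzb1 was the highest of the 9 genes in S1001, S1002 and S1003, at 30.9, 28.4 and 30.6 FPKM, followed by Tnfrsf13b at 6.59, 6.81 and 6.97 FPKM. In S1004, Tnfrsf17 was the highest at 7.56 FPKM and Tnfrsf13b the next at 4.44 FPKM, while Mzb1 and Pou2af1 were listed at 0. In S1008, Fkbp11 at 2.18 FPKM and Derl3 at 0.95 FPKM were the highest. The order of the genes thus differed with the library.

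The remaining parts of the BAFF and APRIL system, which were listed as a group, were also uneven. Tnfsf13b, the ligand BAFF made by myeloid cells, measured 8.20, 10.7 and 8.01 CPM in S1001 to S1003, 0.737, 0.896 and 1.53 CPM in S1004 to S1006, and 0.538, 0.792 and 0 CPM in S1007 to S1009. Tnfsf13, the ligand APRIL, was higher in S1004 to S1006 than in S1001 to S1003, with 12, 6 and 5 counts in S1001 to S1003 and 43, 35 and 18 in S1004 to S1006, or 2.26, 2.41 and 1.31 CPM in S1004 to S1006. It had 0, 0 and 4 counts in S1007 to S1009. Tnfrsf13c, the BAFF receptor of mature B cells, had 18, 11 and 9 counts in S1001 to S1003, 0, 6 and 0 in S1004 to S1006 and 0, 5 and 0 in S1007 to S1009. Only Tnfsf13b of these 3 reached a mean of 1 CPM.

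**Figure D3:**
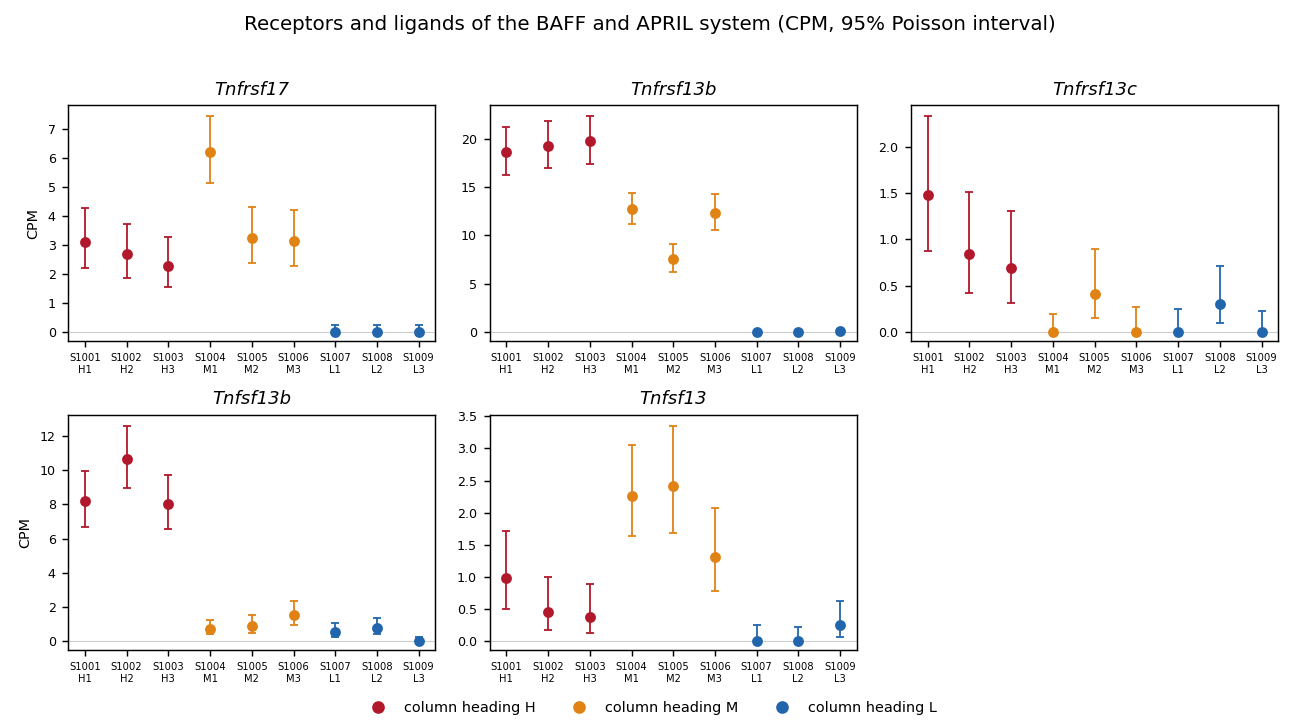
Level in CPM (vertical axes, a scale for each panel) of 3 receptors and 2 ligands of the BAFF and APRIL system in each library, with 95% Poisson intervals for counting error. Tnfrsf17 and Tnfsf13 lie highest in S1004 and S1005, Tnfsf13b in S1001 to S1003 at 8.01 to 10.7 CPM.

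Most antibody genes, the products of plasma cells, were far higher in S1001 to S1003, as were Mzb1 and Pou2af1. The counts for this list and those that follow are of genes that reached 1 CPM, unless all are named. They are to be read against the 14787 genes, of which 26.4% differed by 2-fold or more, 12.7% had S1001 to S1003 highest and 13.6% had S1007 to S1009 lowest. The minimum is a mean over all 9 libraries, so a gene can reach it through S1001 to S1003 alone, as Igkc, Jchain and Cd79a did. For such genes the 2-fold difference and S1001 to S1003 being highest largely follow from the minimum, so these counts are a description only. Of 12 antibody chain genes, 10 reached 1 CPM, and all 10 differed by 2-fold or more. In 9 of them S1001 to S1003 lay above the other 6 libraries. Without the minimum, all 12 differed by 2-fold or more and 11 had S1001 to S1003 highest. Igkc, the kappa constant chain, was at 2133 to 2180 CPM in S1001 to S1003 and at most 0.853 CPM elsewhere. Ighg2c, a heavy chain, was at 1473 to 1565 CPM and at most 0.896 CPM, and Jchain, which joins antibody polymers, at 1046 to 1131 CPM and at most 1.17 CPM. Ighm, the mu heavy chain, named after its values were seen, differed from these in having 89.9, 79.1 and 76.4 CPM in S1004 to S1006, against 690, 752 and 732 CPM in S1001 to S1003. Per Mzb1 count there were 37.5, 44.1 and 39.5 Jchain counts and 76.6, 85.0 and 78.3 Igkc counts in S1001, S1002 and S1003. Because antibody genes resemble each other in sequence, it is uncertain how reads were shared out among them.

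Other plasma cell genes were also uneven. Of 18, 13 reached 1 CPM. Of these 13, 7 differed by 2-fold or more, 8 had S1001 to S1003 above the other libraries and 4 had S1007 to S1009 below, against 26.4%, 12.7% and 13.6% of the 14787 genes. Some of the 8 were nearly tied. The gap was 0.01 for Ell2, 0.03 for Eaf2 and 0.07 for Txndc11 on the log2(CPM + 1) scale, all named after their values were seen. None of these differed by 2-fold. Tent5c, a poly(A) polymerase abundant in plasma cells, was at 54.6, 52.8 and 59.2 CPM in S1001 to S1003 and at 0 to 1.93 CPM in the others. Slamf7, a surface receptor of plasma cells and natural killer cells, named after its values were seen, had 247, 273 and 246 counts in S1001 to S1003 and 0 to 11 in the others. Cd38, an ectoenzyme of plasma cells and macrophages, was highest in S1004 to S1006, at 81.9, 80.1 and 88.6 CPM, with 19.8, 29.0 and 26.2 CPM in S1001 to S1003 and 0.731 to 3.63 CPM in S1007 to S1009. Zbtb20, a transcription factor of both plasma cells and hippocampal neurons, ranged only from 203 to 287 CPM.

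Most genes of the secretory pathway differed less. All 26 genes of the secretory and unfolded protein response list reached 1 CPM, and 4 differed by 2-fold or more, with a median difference of 0.56 on the log2 scale. S1001 to S1003 lay above the other libraries in 6 of the 26 and S1007 to S1009 below in 2. Over the 14787 genes the shares were 26.4% for a 2-fold difference, 12.7% for S1001 to S1003 highest and 13.6% for S1007 to S1009 lowest. Hspa5, the chaperone BiP, ranged from 572 to 1072 CPM, Hsp90b1 from 408 to 688 CPM and Pdia6, a disulfide isomerase, from 323 to 610 CPM, and S1001 to S1003 overlapped the other libraries for each. Xbp1, the transcription factor of the plasma cell secretory programme, named after its values were seen, ranged from 191 to 388 CPM with its lowest and highest libraries in S1005 and S1007. Edem1, which directs misfolded glycoproteins to degradation and was also named after its values were seen, was at 84.8 to 93.2 CPM in S1001 to S1003 and 5.11 to 17.4 CPM in the others. Edem2, of the same family and named likewise, was at 88.2 to 99.5 CPM in S1001 to S1003 and 37.2 to 41.9 CPM in the others.

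Mature B cell genes were uneven, and 7 of the 12 lay below 1 CPM. All 5 that reached 1 CPM differed by 2-fold or more, and 4 of them had S1001 to S1003 highest and 4 had S1007 to S1009 lowest, against 26.4%, 12.7% and 13.6% of the 14787 genes. Cd79a, a chain of the B cell receptor named after its values were seen, had 166, 156 and 177 counts in S1001 to S1003 and 0 or 1 in the others. Ms4a1, a defining surface protein of B cells also named after its values were seen, had 10 to 12 counts per library in S1001 to S1003 and 0 to 3 in the others. The summed level of the 12 was 99.7 to 115 CPM in S1001 to S1003, 37.3 to 46.1 CPM in S1004 to S1006 and 2.03 to 2.25 CPM in S1007 to S1009. In S1001 to S1003, Cd37 was at 52.3 to 61.0 CPM, Cd22 at 17.8 to 18.6 CPM and Bank1 at 5.30 to 6.48 CPM. Bank1, a B cell scaffold protein, was higher in S1004 to S1006, at 9.38 to 15.9 CPM. Of the 10 genes of the germinal centre and of factors set against Prdm1, 8 reached 1 CPM and all 8 differed by 2-fold or more, S1001 to S1003 being highest in 6 and S1007 to S1009 lowest in 5, again against 26.4%, 12.7% and 13.6% of the 14787 genes. Irf8 and Spi1, which B cells share with microglia and macrophages, were at 178 to 192 and 115 to 121 CPM in S1001 to S1003, 38.5 to 76.7 and 78.1 to 113 CPM in S1004 to S1006, and at most 2.15 and 2.56 CPM in S1007 to S1009. Bcl6, a repressor that opposes Prdm1, was at 37.3 to 41.2 CPM in S1001 to S1003 and 11.4 to 18.0 CPM in the others.

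Genes of the cells and signals that surround plasma cells varied too. Of 12 niche genes, 11 reached 1 CPM. Of these 11, 9 differed by 2-fold or more, 6 were highest in S1001 to S1003 and 7 lowest in S1007 to S1009, where the shares over all genes were 26.4%, 12.7% and 13.6%. Icam1, an adhesion molecule, was at 129 to 142 CPM in S1001 to S1003, 3.85 to 16.9 CPM in S1004 to S1006 and 0.0673 to 0.185 CPM in S1007 to S1009. Vcam1, an integrin ligand, was at 153 to 180, 180 to 256 and 0.670 to 1.11 CPM in the same sets, and Bcl2l1, a survival protein also made by neurons, ranged only from 103 to 152 CPM. Of 8 cell division genes, 5 reached 1 CPM, and of the 5, 4 differed by 2-fold or more, none had S1001 to S1003 highest and 4 had S1007 to S1009 lowest. Over all 8, S1001 to S1003 were highest in 2, Ccnb1 and Ccnb2. Cdk1, a mitotic kinase, was at 2.95 to 4.07, 2.25 to 4.48 and 0 CPM in the 3 sets and Top2a, a DNA topoisomerase, at 1.80 to 3.23, 0.947 to 2.62 and 0 CPM, while the cyclin Ccnb1 had 22 to 44, 1 to 11 and 1 to 5 counts.

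Many markers of myeloid and other lymphoid cells also differed between libraries, but the lists did not share a single order. All 7 microglial genes listed were highest in S1001 to S1003 and 6 were lowest in S1007 to S1009, as were 12.7% and 13.6% of the 14787 genes, with sums of 5214 to 5453, 990 to 1352 and 14.9 to 54.6 CPM in the 3 sets. Among them, C1qa, a complement chain, and Cx3cr1, a chemokine receptor, reached 2991 and 471 CPM. All 7 border macrophage genes were lowest in S1007 to S1009, and none was highest in S1001 to S1003. Their sum was 399 to 406 CPM in S1001 to S1003, 1588 to 2245 CPM in S1004 to S1006 and 2.22 to 17.0 CPM in S1007 to S1009, with S1004 the highest library, as for Tnfrsf17, and S1008 the highest of the last 3. Cbr2, Mrc1 and Pf4 led this list, at up to 505, 423 and 421 CPM. The part of microglia and border macrophages in the levels of Tnfrsf17, Tnfrsf13b, Irf4 and Prdm1 was not tested.

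T cell genes summed to 29.7 to 31.0 CPM in S1001 to S1003, 4.00 to 4.62 CPM in S1004 to S1006 and 4.81 to 8.10 CPM in S1007 to S1009. Of 8, 4 reached 1 CPM, and 3 of these 4 differed by 2-fold or more and were highest in S1001 to S1003. Over all 8, including those below the minimum, 7 were highest in S1001 to S1003, Lck being the exception. Cd3g, a chain of the T cell receptor complex, was at 5.82 to 6.86 CPM in S1001 to S1003 and at most 0.0727 CPM elsewhere. Trac was at 3.69 to 4.99 CPM in S1001 to S1003 and 0.581 to 3.23 CPM elsewhere, and Lck, a kinase also found in neurons, ranged from 2.83 to 7.29 CPM. Of 7 genes of plasmacytoid dendritic cells, which can also express Mzb1, 4 reached 1 CPM, and of these 4, 3 differed by 2-fold or more, 2 were highest in S1001 to S1003 and 1 was lowest in S1007 to S1009. Their sum of 566 to 918 CPM was mostly Tcf4, at 532 to 914 CPM, which neurons also express. Siglech, shared with microglia, was at 148 to 162 CPM in S1001 to S1003 and at most 32.8 CPM elsewhere, and Ly6d at 7.09 to 8.36 and at most 0.138 CPM. The part of T cells and dendritic cells in the levels of the 9 genes was not tested.

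**Figure D4:**
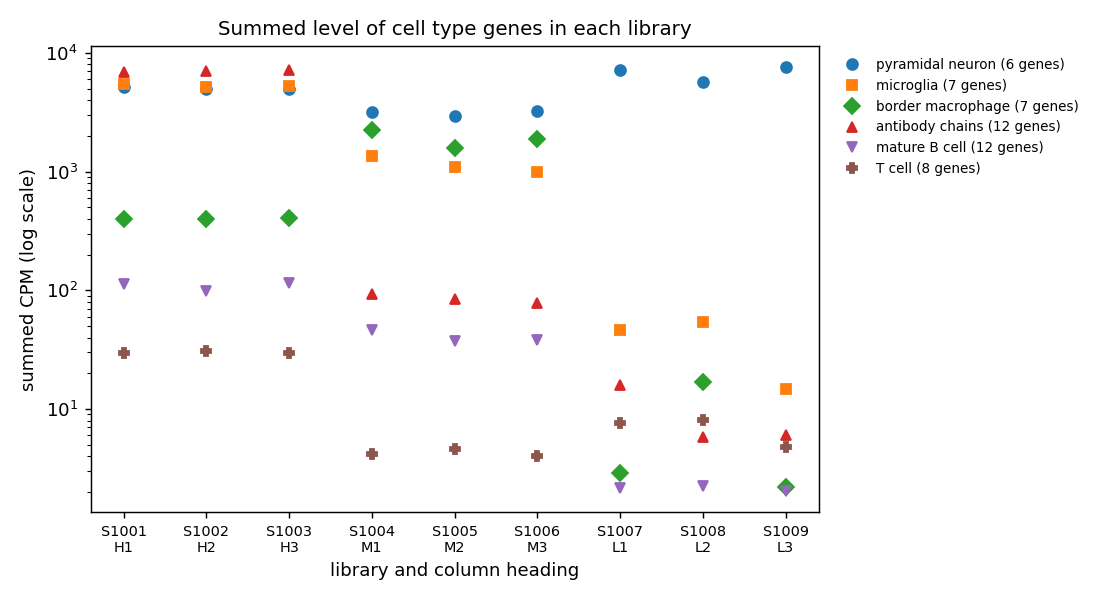
Summed level in CPM (vertical axis, log scale) of 6 lists of cell type genes in each library, 1 point per list and library. Antibody chains are at 6885 to 7148 CPM in S1001 to S1003 and at most 93.7 CPM in the others, whereas border macrophage genes are highest in S1004 to S1006.

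Pyramidal neuron genes, the labelled cell type, summed to 4969 to 5192 CPM in S1001 to S1003, 2968 to 3230 CPM in S1004 to S1006 and 5681 to 7600 CPM in S1007 to S1009. The sets did not overlap, and their order differed from that of the 9 genes. Nrgn, Gria2 and Neurod6 led the list, at 576 to 4203, 1224 to 1965 and 446 to 1111 CPM. Of the 6 genes, 2 differed by 2-fold or more, and none had S1001 to S1003 highest or S1007 to S1009 lowest, against 26.4%, 12.7% and 13.6% of the 14787 genes.

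The 5 genes most like Mzb1 over the 9 libraries were not those most like Tnfrsf17. Likeness was the overlap of the shares that 2 genes have of their summed CPM in each library, 100% meaning the same distribution. The 5 genes most like Mzb1 were the kappa variable segments Igkv13-85 and Igkv17-121, Cd79a, a B cell receptor chain, Cst7, a cystatin of activated microglia, and Cd300lf, a myeloid receptor, at 98.8% to 99.4%. An overlap of at least 90% with Mzb1 was reached by 187 of 14786 genes. Among the plasma cell genes it was 95.7% for Pou2af1 and 39.1% for Tnfrsf17. The 5 most like Tnfrsf17 were Ptpn18, a phosphatase, Grap, a signalling adaptor, C2, a complement component, Ifi27l2a, an interferon-induced gene, and Batf2, a transcription factor, at 92.5% to 95.1%, and 29 of 14786 genes reached 90%. The overlap of Tnfrsf17 with Tnfrsf13b was 75.2%. With 9 libraries of which 3 are nearly alike, many genes share such a distribution.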

How the data were processed

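RNA of sorted hippocampal neurons was sequenced in 9 libraries. Per the file headers, the authors deposited for each of 51912 Ensembl genes its raw count and its FPKM, which is scaled for gene length and depth. The tools in the submitters' processing notes are HTSeq 0.6.1, HISAT2 2.0.1, Trimmomatic 0.30 and bcl2fastq 2.17.1.14, with build mm10. Their roles, parameters, strand setting and annotation were not found in the labels, so overlapping genes are uncertain. Symbols and coordinates came from GENCODE M21, which named 51633 genes.

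Labels put 0 of 9 libraries in a group, so nothing was tested between doses. The genes and lists were chosen with earlier results of these data known. CPM were computed from the counts with TMM factors (edgeR 4.0.16, R 4.3.3), with a pseudocount of 1 CPM, a minimum mean of 1 CPM and a 2-fold threshold. The comparison of S1007 to S1009 with the rest was added after seeing the data. Intervals are exact Poisson, at 95%, and the limit of a count of 0 is 3 counts. Deposited FPKM served to compare genes. The named genes were every member of the list, every BAFF, APRIL and syndecan gene, the 3 most abundant of each other list except for a gene that is not reported here, others being marked as named after their values were seen, and the 5 most like Mzb1 and Tnfrsf17. Alternatives were total counts, FPKM, size factors of DESeq2 1.42.0, TMM-scaled library sizes without mitochondrial genes, pseudocounts, minimums, the full range and leaving out libraries. Calculations used scipy 1.17.1, pandas 2.3.3, numpy 2.4.6 and Python 3.11.15 and were tested on simulated data.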

Additional observations from a re-analysis of the deposited data

How the results depend on the processing

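Of 8 genes at 1 CPM, 7 differed by 2-fold or more and 7 had S1001 to S1003 above the other libraries, while 4 had S1007 to S1009 below. The shares over the 14787 genes were 26.4%, 12.7% and 13.6%. These shares were computed for the main setting only, so the counts under other settings show how the calls moved and nothing further. Leaving out 1 library at a time gave 7 to 8, 7 to 8 and 4. Total counts, DESeq2 size factors and TMM-scaled library sizes without mitochondrial genes gave 8, 8 and 4, since Pou2af1 then passed the minimum. With deposited FPKM the counts were 5, 5 and 3 of 6 genes. A pseudocount of 5 CPM left 4 genes at 2-fold, and a minimum of 10 CPM left Tnfrsf13b alone, with 1, 1 and 1. Leaving out S1001, S1002 and S1003 together, chosen after seeing the data, left 4 of 5 genes at 2-fold, and 3 below. Pseudocounts of 0.5 and 5 CPM gave gaps of 5.39 and 2.58 for Mzb1, against 4.57, and of 2.68 and 0.62 for Pou2af1, against 1.89. No gap changed sign. The order of Fkbp11 rests on a gap of 0.05. No paired analysis was possible because no library has a group. Depth limits Pou2af1, Sdc1, Irf4, Tnfrsf17, Fkbp11 and Derl3, with at most 118 counts in a library.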
